A study of Mus musculus with 8 samples.

Results

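The genes described are 5 ATPase genes of 19938 genes measured: Atp1b1, Atp1b2 and Atp1b3, which encode beta subunits of the sodium pump, and Atp7a and Atp7b, which encode the copper-transporting ATPases. They were chosen by their differences on these arrays, because Atp1b1 and Atp7b were higher in the tumor-initiating cell (TIC) fraction, and the 3 paralogs were taken as contrast. The difference between fractions is therefore given for these 5 genes as a description. Their limma calls are counted once, beside the share of all genes called, and support nothing. All 5 had a transcript cluster (a row of probes for 1 gene) annotated with exactly 1 symbol, and the brightest row was used for Atp1b3, which had 2.

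The samples were 4 arrays of the TIC fraction and 4 arrays of the CD24-negative, non-TIC fraction (CD24-), sorted by FACS from the same primary mammary tumors. All tumors came from FvB mice with the MMTV-Neu transgene, in which a viral promoter active in mammary epithelium drives the Neu (Erbb2) receptor, so both fractions carry the transgene. Tumors N251, N260 and N283 gave a pair of arrays each, and cells of N222 and N229 were combined in equal parts before the sort and gave the fourth pair, called the pool here. Neither the age of the mice nor the gate that defined TICs is stated in the sources used here. Each pair shares a tumor, and the pool averages 2 animals.

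The sodium pump exchanges intracellular sodium for extracellular potassium at the cost of ATP. Its catalytic alpha subunit needs a beta subunit to fold and reach the plasma membrane, and the beta 1 subunit also takes part in contacts between epithelial cells. ATP7A and ATP7B carry copper into the secretory pathway, where copper-dependent enzymes are loaded, and export copper when it is in excess. ATP7A is defective in Menkes disease and ATP7B in Wilson disease, and the toxic milk mouse, a mutant of Atp7b, secretes milk poor in copper. ATP7A also moves copper into the phagosomes of macrophages.

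The 250 bases before the annotated start of transcription were compared for the 4 genes found in the RefSeq promoter table of GRCm38.p6, because these genes fell into pairs with like profiles over the tumors. The Atp1b1 window lies at chr1:164458356-164458605 on the minus strand, the Atp7b window at chr8:22060075-22060324 on the minus strand, the Atp1b3 window at chr9:96364432-96364681 on the minus strand and the Atp7a window at chrX:106026974-106027223 on the plus strand. Capitals mark matches, on either strand, to the GC box (GGGCGG), the CCAAT box (CCAAT), the TATA box (TATAAA or TATATA), the core of the metal response element (TGCGCNC or TGCACNC) and the E box (CACGTG).
Atp1b1: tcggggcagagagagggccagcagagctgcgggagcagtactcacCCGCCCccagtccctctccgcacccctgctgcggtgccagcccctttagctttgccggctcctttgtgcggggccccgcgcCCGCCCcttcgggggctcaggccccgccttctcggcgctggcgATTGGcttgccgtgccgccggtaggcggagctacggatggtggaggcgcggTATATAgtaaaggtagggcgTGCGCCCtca
Atp7b: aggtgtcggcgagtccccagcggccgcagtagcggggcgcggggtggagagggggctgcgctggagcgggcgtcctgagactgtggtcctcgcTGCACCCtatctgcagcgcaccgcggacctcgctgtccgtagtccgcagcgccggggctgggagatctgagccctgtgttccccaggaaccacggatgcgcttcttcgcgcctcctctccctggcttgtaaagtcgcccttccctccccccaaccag
Atp1b3: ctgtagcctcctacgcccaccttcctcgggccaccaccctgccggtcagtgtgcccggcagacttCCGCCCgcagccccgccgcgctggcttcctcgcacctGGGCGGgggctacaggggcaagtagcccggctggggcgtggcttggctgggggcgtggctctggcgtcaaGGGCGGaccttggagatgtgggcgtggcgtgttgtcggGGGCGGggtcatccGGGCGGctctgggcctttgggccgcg
Atp7a: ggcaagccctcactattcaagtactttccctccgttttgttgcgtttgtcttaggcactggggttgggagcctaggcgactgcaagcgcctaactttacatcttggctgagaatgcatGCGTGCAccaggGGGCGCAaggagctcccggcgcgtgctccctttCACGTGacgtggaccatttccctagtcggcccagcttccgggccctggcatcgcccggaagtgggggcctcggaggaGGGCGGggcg
Atp1b1 alone among these windows held a TATA box match, 30 to 25 bases before the start, and a CCAAT box match on the reverse strand, 81 to 77 bases before it. Among 32851 RefSeq windows of the same length, 15.6% held the first and 33.8% the second. GC box matches numbered 2 in Atp1b1, 5 in Atp1b3, 1 in Atp7a and 0 in Atp7b, and 32.7% of all windows held at least 1. The metal response core, bound by the metal-sensing factor MTF1 in genes such as those of metallothioneins, was matched in Atp1b1, Atp7b and Atp7a (1, 1 and 2 matches) and in 21.4% of all windows. The E box was matched once, in Atp7a (6.02% of all windows). The GC content was 70.4% in Atp1b1, 69.6% in Atp7b, 73.6% in Atp1b3 and 62.4% in Atp7a, all above the median of 52.4% over all windows. No motif was shared by Atp1b1 and Atp7b and missing from both other windows. These matches are letters in a window and were not tested as sites.

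Both fractions were first set against cell type markers. Epithelial RNA was bright in both, with Epcam, an epithelial surface protein gene, at 12.09 ± 0.08 in TIC arrays and 11.69 ± 0.42 in CD24- arrays (log2 intensity, SD, n = 4 each), and Krt8, a luminal keratin gene, at 12.73 in TIC arrays and 12.30 in CD24- arrays. Leukocyte RNA was far lower in the TIC fraction: all 15 macrophage markers were lower in every TIC array than in any CD24- array, as were 4.68% of all genes, and their mean level was 6.48 to 6.85 in TIC arrays against 9.83 to 12.35 in CD24- arrays. The 10 pan-leukocyte markers averaged 6.65 to 6.95 in TIC arrays against 8.61 to 11.09 in CD24- arrays, with N251 the highest of the CD24- arrays, then N260, N283 and the pool. Csf1r, the macrophage growth factor receptor gene, averaged 6.37 in TIC arrays and 11.43 in CD24- arrays, where the lower quartiles of the 8 arrays were 6.05 to 6.28. Ptprc, the CD45 gene of leukocytes, averaged 5.90 in TIC arrays and 10.19 in CD24- arrays. The means of the T and NK cell, fibroblast and endothelial lists were also lower in the TIC array of each pair. Their log2 differences ran from -4.15 to -1.38, from -0.80 to -0.39 and from -0.51 to -0.24. In such bulk samples, fewer cells of a type and less RNA per cell cannot be told apart. Cd24a RNA itself was at 12.32 ± 0.21 in TIC arrays and 11.22 ± 0.67 in CD24- arrays.

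Atp1b1, the beta 1 subunit, was higher in each TIC array than in its CD24- partner. It was at 10.98, 10.76, 10.52 and 10.79 in the TIC arrays of N251, N260, N283 and the pool, against 9.55, 10.04, 9.93 and 9.48 in their CD24- arrays (log2 intensity). The fractions did not overlap: the lowest TIC array, N283, lay 0.48 above the highest CD24- array, N260. The mean was 10.76 ± 0.19 in TIC arrays and 9.75 ± 0.28 in CD24- arrays (SD, n = 4 each), a log2 difference of 1.01 ± 0.42 (SD over 4 tumors) or 2.02-fold. Within tumors it ran from 0.59 in N283 to 1.43 in N251. All TIC arrays lay above all CD24- arrays for 5.19% of the 19938 genes, and below them for 4.68%.

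Atp7b, which in liver delivers copper to ceruloplasmin and to bile, had the larger difference, with wider spread. It was at 9.00, 8.79, 9.42 and 8.46 in the TIC arrays of N251, N260, N283 and the pool, against 7.13, 7.84, 8.57 and 6.79 in their CD24- arrays. The pairs all ran the same way, but the fractions overlapped, since the CD24- array of N283 (8.57) was above the TIC array of the pool (8.46). Atp7b averaged 8.92 ± 0.40 in TIC arrays and 7.58 ± 0.79 in CD24- arrays, a log2 difference of 1.34 ± 0.51 (SD over 4 tumors) or 2.52-fold. Tumors differed in their level in both fractions: N283 was the highest and the pool the lowest in each. The SD between arrays exceeded that of 96.2% of genes in the TIC fraction and of 95.8% in the CD24- fraction. Within tumors the difference ran from 0.85 in N283 to 1.87 in N251.

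**Figure D1:**
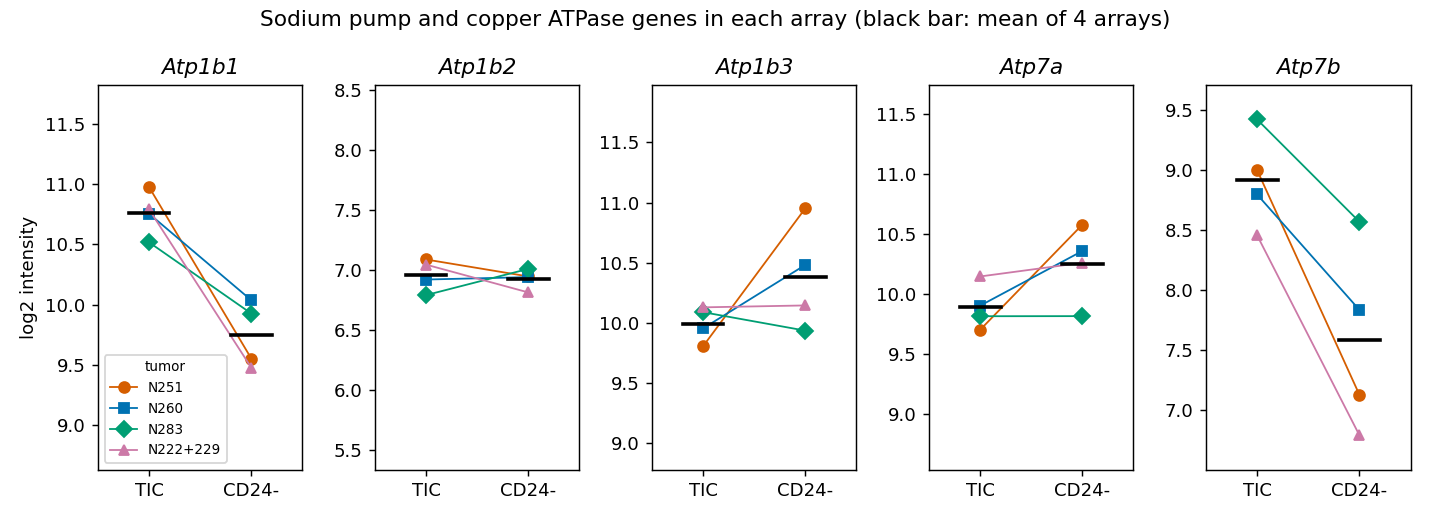
Log2 intensity of the 5 genes in each array, TIC on the left and CD24- on the right of each panel. Each line joins the arrays of 1 tumor, black bars are means of 4 arrays, and all panels span the same number of log2 units. In the Atp1b1 and Atp7b panels the TIC end of every line is the higher one, the Atp1b2 lines cross, and in the Atp1b3 and Atp7a panels the CD24- array of N251 is the highest.

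The other beta subunits did not share the pattern of Atp1b1. Atp1b2, first known as an adhesion molecule of glia, was at 7.09, 6.92, 6.79 and 7.05 in the TIC arrays of N251, N260, N283 and the pool, against 6.95, 6.94, 7.01 and 6.81 in their CD24- arrays. The fractions overlapped almost wholly, and the difference of 0.034 ± 0.20 was positive in 2 tumors and negative in the other 2. Its sign also turned in 4 of the 12 fits that left out an array or a tumor, the lowest value being -0.032 without the pool.

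Atp1b3, the beta 3 subunit, a surface antigen also found on leukocytes, was at 9.80, 9.95, 10.09 and 10.13 in the TIC arrays of N251, N260, N283 and the pool, against 10.95, 10.48, 9.93 and 10.14 in their CD24- arrays. The TIC arrays were alike (range 0.32) and the CD24- arrays were not (range 1.02), with N251, N260 and, by a small margin, the pool standing above every TIC array. The difference was -0.38 ± 0.59 (SD over 4 tumors), from -1.15 in N251 to 0.15 in N283, and was -0.13 without tumor N251. The second Atp1b3 row gave -1.13, -0.39, 0.26 and -0.022 in N251, N260, N283 and the pool. Both rows thus gave the same signs.

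Atp7a, the ubiquitous copper ATPase, was at 9.70, 9.90, 9.82 and 10.15 in the TIC arrays of N251, N260, N283 and the pool, against 10.58, 10.36, 9.82 and 10.26 in their CD24- arrays. It was lower in the TIC arrays of N251 and N260, while the difference was -0.11 in the pool and only -0.00077 in N283. The sign was thus negative in all 4 tumors, as for 11.8% of all genes, and the fractions overlapped. The mean difference was -0.36 ± 0.39 (SD over 4 tumors), and -0.19 without tumor N251.

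Each comparison within a family ran one way in all tumors. The difference of Atp7b exceeded that of Atp7a by 2.74, 1.42, 0.85 and 1.78 in N251, N260, N283 and the pool (mean 1.70 ± 0.80 on the log2 scale). The difference of Atp1b1 exceeded that of Atp1b3 by 2.57, 1.25, 0.44 and 1.33 (mean 1.40 ± 0.88). It exceeded that of Atp1b2, whose level was low in both fractions, by 0.98 ± 0.25. In N251 and N260 Atp1b3 and Atp7a were lower in the TIC fraction while Atp1b1 and Atp7b were higher. In N283 and the pool the differences of Atp1b3 and Atp7a were small, between -0.11 and 0.15. Since Atp1b1 and Atp7b were picked for this direction, these contrasts are descriptions.

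Of the 5 genes, 1 (Atp1b1) was called higher by limma at an adjusted p under 0.05 without the tumor as a block, where 0.0502% of all genes were, and 0 were called lower, where 0.742% were. With the tumor as a replicate block 2 (Atp1b1 and Atp7b) were called higher, against 0.863% of genes, and 0 lower, against 1.09%. The choice of the genes used this contrast, so nothing is read from these counts.

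**Figure D2:**
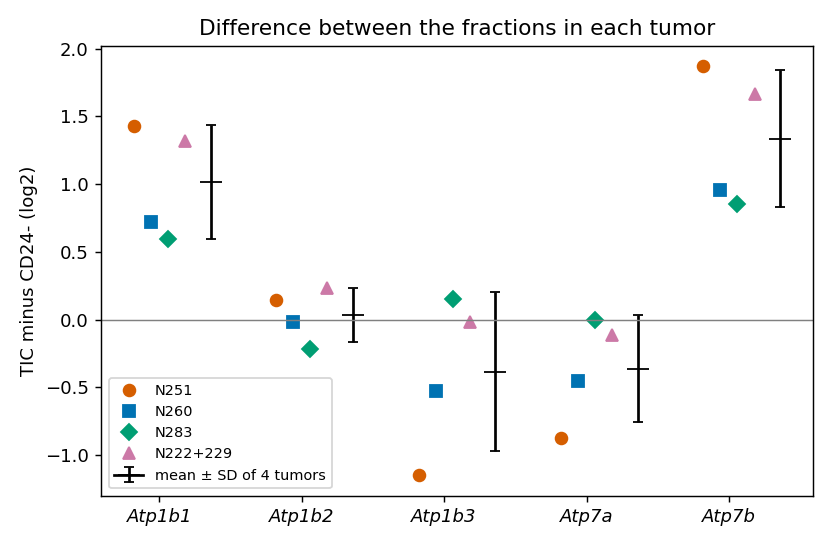
Log2 difference, TIC minus CD24-, of the 5 genes in each tumor (symbols), with the mean and SD over 4 tumors in black. Atp1b1 lies between 0.59 and 1.43 and Atp7b between 0.85 and 1.87, while the 3 paralogs reach to or across 0.

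The tumors ranked alike within 2 pairs of genes. For both Atp1b1 and Atp7b the difference was largest in N251, then in the pool, N260 and N283, and their differences were 0.24 to 0.44 apart in each tumor. For both Atp1b3 and Atp7a the TIC fraction was lowest relative to CD24- in N251, then in N260, the pool and N283. Over the 8 arrays, which share tumors and fractions, the levels correlated at 0.84 between Atp1b1 and Atp7b, at 0.91 between Atp1b3 and Atp7a and at -0.85 between Atp7a and Atp7b (Pearson). Atp1b1 was at -0.62 with Atp1b3 and -0.68 with Atp7a, and Atp7b at -0.65 with Atp1b3. Correlations with Atp1b2 ran from -0.19 to 0.43. Because Atp1b1 and Atp7b were chosen as higher in the same TIC arrays, their correlation follows in part from the choice, and nothing is read from it.

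The cell type markers differed in their order over the tumors. The mean difference of the macrophage list was -5.64, -4.93, -4.07 and -2.99 in N251, N260, N283 and the pool, and that of the pan-leukocyte list -4.14, -3.63, -2.76 and -1.92. Both orders match that of Atp1b3 and Atp7a for N251 and N260 but not for N283 and the pool. The 14 luminal epithelium markers differed by 1.03 in N251 and by 0.28, 0.030 and 0.11 in N260, N283 and the pool. The mean of the 9 basal and myoepithelial markers differed by 0.39, 0.19, 0.073 and 0.21 in N251, N260, N283 and the pool. This is the tumor order of Atp1b1 and Atp7b, but N260 and the pool were nearly equal. The pool stood above N260 only through Oxtr. Oxtr differed by 1.42, 0.69, 0.95 and 1.79 in these tumors. Differences of the 9 genes ran from -0.017 to 1.21, the latter that of Oxtr, with a median of 0.028. The mean level of the 9 was 6.74 to 7.09 in TIC arrays against 6.53 to 6.89 in CD24- arrays. In the pool Atp1b1 and Atp7b were higher by 1.32 and 1.66 in the TIC fraction. The part of leukocyte, luminal or basal RNA in the differences of the 5 genes was not tested.

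**Figure D3:**
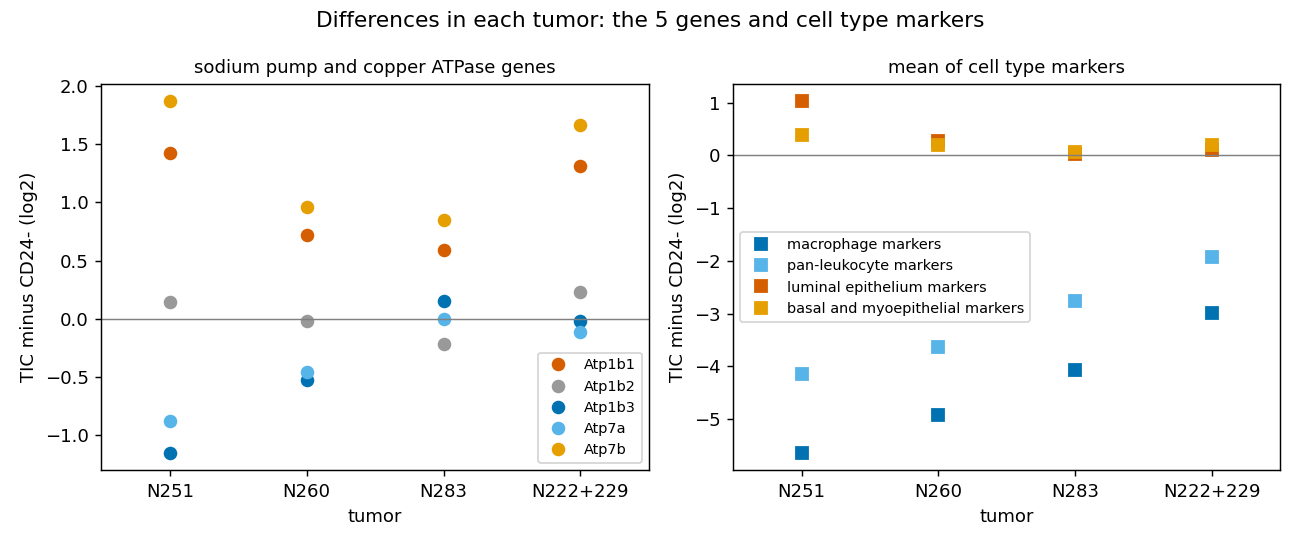
Log2 difference, TIC minus CD24-, in each tumor for the 5 genes (left) and for the mean of 4 cell type marker lists (right). Atp1b1 and Atp7b are highest in N251 and the pool. The basal list is highest in N251 (0.39), with the pool (0.21) and N260 (0.19) nearly equal. The macrophage list is at -5.64 in N251 and -2.99 in the pool. The basal mean includes Oxtr, at 1.42 in N251 and 1.79 in the pool, while the median difference of that list is 0.028.

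The genes with levels most like those of Atp1b1 over the 8 arrays were Vsnl1, a neuronal calcium sensor gene, Plekhh2, Glt8d2, Cnmd, which encodes chondromodulin, and Mir148b, a microRNA gene, with Pearson correlations of 0.977, 0.970, 0.965, 0.963 and 0.962. Vsnl1 differed by 1.53 ± 0.86 (SD over 4 tumors), Plekhh2 by 1.12 ± 0.56 and Mir148b by 0.36 ± 0.07. Mir148b was dim, at 5.36 in TIC arrays and 5.01 in CD24- arrays, and Glt8d2 was at 6.27 and 5.77. The lower quartiles of the 8 arrays were 6.05 to 6.28. Those most like Atp7b were Sectm1a, Sema3c, a secreted semaphorin gene, Arhgap6, a GTPase-activating protein gene, Psmc3ip, which acts in meiotic recombination, and A4galt, a glycolipid galactosyltransferase gene (0.994, 0.982, 0.981, 0.981 and 0.979). A4galt differed by 1.19 ± 0.64 and Sectm1a by 0.90 ± 0.40. The 2 sets had no gene in common. These correlations reflect the contrast between fractions as well as the tumors.

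The other genes of sodium and copper transport were read from 5 lists with 92 members analysed here of 102. Without the block 0 of the 92 were called (limma, adjusted p under 0.05 over all genes, where 0.792% of all genes were called), and 0 with the tumor as a replicate block, where 1.96% were. At an unadjusted p under 0.05 there were 16 of 92 without the block, or 17.4%, against 14.3% of all genes. The median difference of the 92 was 0.067, against 0.038 for all genes.

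Among partners of the sodium pump, Fxyd5 stood out. Of 12 measured members 0 were called, and the median difference was -0.0080. In all 4 tumors 0 were higher and 2 lower, where 23.2% of all genes were higher and 11.8% lower. Fxyd5, which encodes dysadherin, a pump regulator that lowers cell adhesion, was at 10.28, 10.18, 10.42 and 10.25 in the TIC arrays of N251, N260, N283 and the pool, against 12.93, 12.45, 11.83 and 11.11 in their CD24- arrays. Every TIC array lay below every CD24- array, as for 4.68% of all genes, and the CD24- arrays ranked as the leukocyte markers did. The difference of -1.80 ± 0.33 (SE; 3.48-fold lower) just missed the threshold (limma adjusted p = 0.0504, and 0.0534 with the tumor block), and it was called with the tumor as a random block (adjusted p = 0.0114). The part of leukocyte, fibroblast or endothelial RNA in it was not tested.

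Fxyd6, another pump regulator, differed by 0.47 ± 0.17 (SE, adjusted p = 0.256) and was higher in 3 of 4 tumors. Nkain2, which encodes a protein that binds the beta 1 subunit, differed by -0.16 (adjusted p = 0.584). Atp1b4, which in mammals has lost its pump function and acts in the muscle nucleus, was dim at 5.78 in TIC arrays and 5.72 in CD24- arrays (difference 0.061, adjusted p = 0.864).

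Of 15 measured genes of sodium entry and its regulators 0 were called, and the median difference was 0.16. In all 4 tumors 1 was higher and 1 lower, where 23.2% of all genes were higher and 11.8% lower. Slc8a1, the sodium-calcium exchanger of the heart and of macrophages, was at 5.77, 5.97, 5.64 and 5.72 in the TIC arrays of N251, N260, N283 and the pool, against 9.41, 8.19, 7.00 and 6.47 in their CD24- arrays. Its CD24- levels followed the order of the leukocyte markers, and the TIC arrays were all dim. The difference of -1.99 ± 0.54 (SE) had a limma adjusted p = 0.156 (0.0375 with the tumor as a random block, which called it). What leukocyte, fibroblast or endothelial RNA contributed to it was not tested. Slc20a1, a sodium-phosphate cotransporter gene, differed by 0.49 ± 0.13 (SE, limma adjusted p = 0.140 without a block and 0.0403 under the random one). Its TIC arrays all lay above its CD24- arrays, as for 5.19% of all genes. Scnn1g, the gamma subunit of the epithelial sodium channel, differed by 0.54 (adjusted p = 0.455), which rested mainly on a low CD24- array of N251.

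Of 30 other P-type ATPase genes, the calcium pumps, flippases and their relatives, 0 were called. The median difference was 0.044. All 4 tumors gave a higher value for 6 genes and a lower one for 5, where 23.2% and 11.8% of all genes had these patterns. Atp2a3, the calcium pump of the endoplasmic reticulum best known in blood cells, differed by -1.16 ± 0.38 (SE, adjusted p = 0.223) and had 6.51 in TIC arrays and 7.67 in CD24- arrays. Atp13a4, a cation ATPase gene, differed by 0.88 ± 0.25 (SE, adjusted p = 0.166), with 9.49 in TIC arrays and 8.60 in CD24- arrays. Atp8b4, a lipid flippase gene, differed by -0.77 (adjusted p = 0.202). None of the 3 passed the test without a block, but Atp8b4 was called with the tumor as a random block (adjusted p = 0.0364), and Atp2a3 without the CD24- array of the pool (0.0475).

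Copper-dependent enzymes had 0 of 15 measured members called, 7 higher and 0 lower in all 4 tumors, where 23.2% of all genes were higher and 11.8% lower. The median difference was 0.12. Cp, which encodes ceruloplasmin, the ferroxidase that receives copper through ATP7B in liver, was at 12.69, 11.92, 12.90 and 12.60 in the TIC arrays of N251, N260, N283 and the pool, against 11.58, 11.29, 12.43 and 11.04 in their CD24- arrays. It was higher in each pair, with overlap between the fractions, and its difference was 0.94 ± 0.31 (SE, limma adjusted p = 0.226, 0.0761 with the tumor block and 0.0484 with the random block). N251 and the pool had the larger differences of Cp, at 1.11 and 1.56 against 0.63 in N260 and 0.47 in N283. These tumors also had the larger differences of Atp7b and Atp1b1 and, in the same list, of Sod3, Pam and Loxl3. The likeness to Atp7b was thus not particular to Cp.

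Sod3, the extracellular superoxide dismutase gene, had 9.14 ± 0.78 in TIC arrays and 8.22 ± 0.67 in CD24- arrays. Its difference of 0.92 was positive in every tumor (adjusted p = 0.369, and 0.0545 with the block). Pam, the enzyme that amidates peptide hormones, differed by 0.68 ± 0.18 (SE; adjusted p = 0.157 without a block, 0.0426 under the random one). Loxl3, a lysyl oxidase-like gene named here after its values were seen, was at 9.54 ± 0.06 in TIC arrays and 8.88 ± 0.25 in CD24- arrays, with a difference of 0.67 ± 0.13 (SE, adjusted p = 0.0544, and 0.0127 with the random block). All TIC arrays lay above all CD24- arrays for 3 of the 15 enzymes, Pam, Loxl3 and Hephl1, as for 5.19% of all genes. Hephl1, a ceruloplasmin-like gene, was dim at 5.76 in TIC arrays and 5.47 in CD24- arrays.

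Copper uptake, chaperones and buffers had 0 of 20 measured members called. All 4 tumors gave a higher value for 4 genes and a lower one for 2, where 23.2% and 11.8% of all genes had these patterns. The median difference was 0.076. Slc31a1, the high-affinity copper importer, differed by 0.26 ± 0.20 (SE, adjusted p = 0.594). Atox1, the chaperone that hands copper to both ATP7A and ATP7B, was at 9.20 in TIC arrays and 9.11 in CD24- arrays (difference 0.091 ± 0.15, adjusted p = 0.852). Commd1, whose product binds ATP7B and whose loss causes copper toxicosis in dogs, differed by 0.18 (adjusted p = 0.448).

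The mitochondrial copper chaperone genes Cox17 and Cox19 differed by 0.38 and 0.34 (adjusted p = 0.292 and 0.382). Mt1, a metallothionein gene that buffers copper and zinc and is induced by them, differed by -0.33 ± 0.15 (SE, adjusted p = 0.354) and was lower in all 4 tumors. Within this list differences ran from -0.33 to 0.38.

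**Figure D4:**
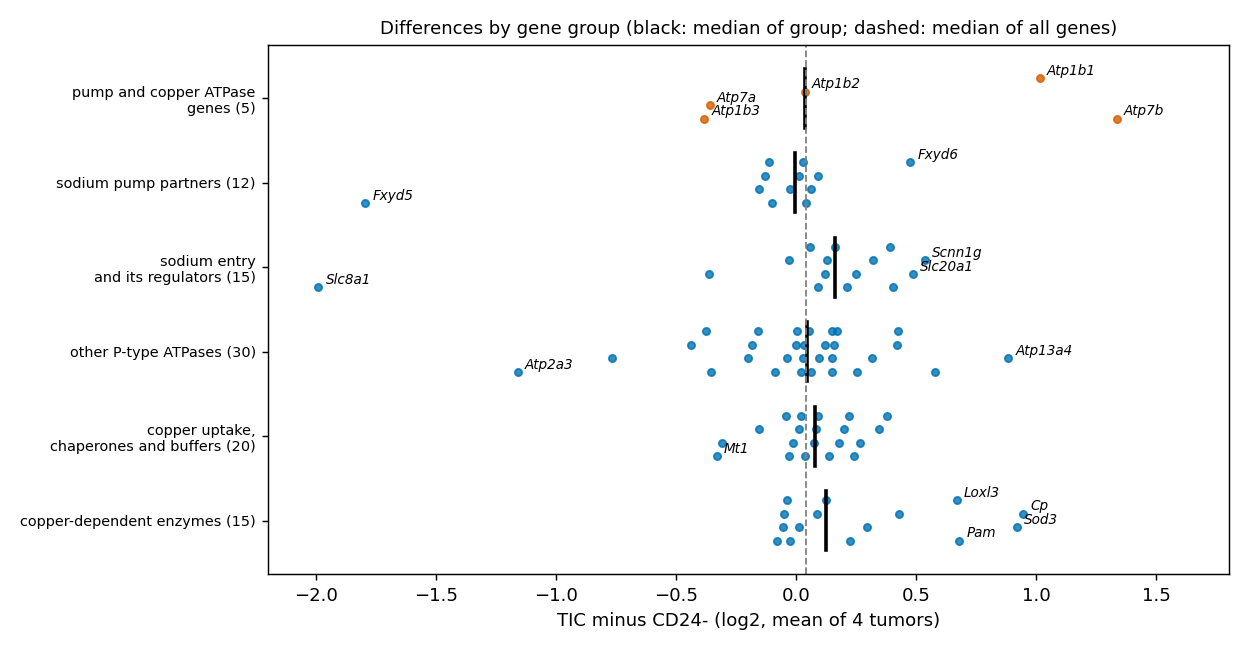
Log2 difference, TIC minus CD24-, of each gene in 6 groups, mean over 4 tumors. Orange points are the 5 genes and blue points the members of the 5 lists, black bars are group medians and the dashed line is the median of all genes (0.038). Atp1b1 and Atp7b lie to the right of every listed gene, and Fxyd5 and Slc8a1 lie farthest to the left.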

How the data were processed

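RNA of 8 sorted fractions was hybridized to Affymetrix Mouse Gene 1.0 ST. The deposited values are log2 intensities; RMA and Partek were used, per the submitters' processing notes, whose versions, settings and genome build the sources used here do not state. The tumors were named by the sample titles, since the growth protocol in the labels writes 2 of their numbers differently. Of 35556 rows, 21789 had exactly 1 symbol in the platform annotation (1621 several, 12146 none), and the brightest row of a gene was kept, leaving 19938 genes. Differences are TIC minus CD24- in limma 3.58.1 (R 4.3.3; lmFit, eBayes) on all 8 arrays, with Benjamini-Hochberg adjustment over all genes. The number of arrays limits the precision.

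Both fractions of a tumor come from the same animals per the labels, and paired arrays deviated together from their group means (correlations over genes of 0.32, 0.43, 0.30 and 0.56, in the order N251, N260, N283, pool). The main fit has no block, and the paired fit, in which tumor is a replicate block, is given where it bears on a call.

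The 5 genes, the lists and the tests were chosen with earlier results of these data known, and the lists were written from general knowledge of the pathways. Named were the 5 genes, called list members, the 3 members of each list with the largest difference, Atp1b4, Slc31a1, Atox1, Commd1, Epcam, Krt8, Ptprc, Csf1r and Cd24a, and the 5 genes most correlated with Atp1b1 and with Atp7b, leaving out provisional symbols. Genes named besides were chosen after their values were seen, and some items are not reported here. Alternatives covered tumor blocks, a filter on dim genes, scalings, row choice, a stricter threshold and leaving out arrays or tumors. Promoter windows are from RefSeq, GRCm38.p6; 4 of the 5 genes matched.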

Additional observations from a re-analysis of the deposited data

Results flagged for a closer look

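Of 72 groups of 4 values checked for the 5 genes and the named list members, 4 had 1 array or tumor far from the other 3, where chance alone gives about 3.6. None was a value of the 5 genes. Atox1 was low in the pool in both fractions, at 8.92 in the TIC array (others 9.27 to 9.31) and 8.74 in the CD24- array (others 9.18 to 9.28). Scnn1g was at 7.29 in the CD24- array of N251 (others 8.46 to 8.59). The Atp13a4 difference was 1.91 in N251 (others 0.48 to 0.57).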

How the results depend on the processing

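The differences of Atp1b1, Atp7b, Atp1b3 and Atp7a kept their sign in all 15 alternatives tried, and that of Atp1b2 in 11. Without 1 array or 1 tumor the values were 0.88 to 1.15 for Atp1b1, 1.07 to 1.66 for Atp7b, -0.032 to 0.12 for Atp1b2, -0.56 to -0.13 for Atp1b3 and -0.51 to -0.19 for Atp7a. The Atp1b3 difference was -0.13 without tumor N251 and -0.19 without the CD24- array of N251. The Atp7a difference was -0.19 without tumor N251.

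Against 10 genes higher and 148 lower, a replicate block of tumor gave 172 and 218, and a random block 430 and 606. The higher count was 19 with arrays centred on their medians, 6 after cyclic loess and 2 with all rows tested. A threshold of 0.01 left 0 higher and 58 lower. Leaving out an array or tumor gave 0 to 46 higher (46 without the CD24- array of N283) and 8 to 583 lower (8 without tumor N260, 583 without the CD24- array of the pool). The higher count shifted past a factor of 1.5 in all 12 such omissions and the lower count in 10, with 160 lower genes without the CD24- array of N283 and 118 without tumor N251. The cause was not tested.

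With the replicate block 0 members of the 5 lists were called, as without it. With a random block 1 pump partner (Fxyd5), 2 genes of sodium entry (Slc8a1 and Slc20a1), 1 other P-type ATPase (Atp8b4) and 3 copper-dependent enzymes (Cp, Loxl3 and Pam) were called. Fxyd5 was also called, as 1 pump partner, with dim genes left out (adjusted p = 0.0495) and with arrays centred on their medians (0.0424). Leaving out an array or tumor gave 0 to 1 calls in the lists of pump partners, sodium entry, other P-type ATPases and copper-dependent enzymes, and 0 to 0 in that of copper uptake, chaperones and buffers. Those calls were Fxyd5 without the CD24- array of N251 or of the pool or without the pool, Slc8a1 and Atp2a3 without the CD24- array of the pool, and Loxl3 without the CD24- array of N251, N283 or the pool. Folds of dim genes may be too small, as background was not measured.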
